A study of Mus musculus with 16 samples.

Results

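Immature conventional type 1 dendritic cells (cDC1s) of 2 floxed mouse genotypes were compared by bulk RNA sequencing. The comparison holds the 8 immature libraries among the 16 of the series, 4 from Xbp1fl mice and 4 from Xbp1flIre1fl mice, chosen by the stage and genotype in their labels. The other 8 libraries are mature cDC1s, 4 of each genotype, and were used only to set the same contrast beside the immature one. All libraries came from spleen of C57BL6 mice at steady state. Both genotypes carry loxP sites in Xbp1, the Xbp1flIre1fl mice also carry them in Ire1 (gene symbol Ern1), and per the labels neither gene was deleted, so that both genotypes were described as wild type. No Cre and no treatment is named in the labels. The genotypes differ in the floxed Ire1 allele and in whatever else separates the 2 mouse lines, and these cannot be told apart here. The sort gates are not given. The labels do not tie libraries to individual mice, and p-values therefore speak only of the variation among these libraries. Xist and Y-linked transcripts, given below, part 1 library from the other 3 in each genotype, so that not all 4 libraries of a genotype came from the same mouse.

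cDC1s take up dead cells and present their antigens to CD8 T cells. In the endoplasmic reticulum (ER), IRE1, encoded by Ern1, senses unfolded proteins and excises an intron from Xbp1 mRNA, after which XBP1 protein switches on chaperone and secretory genes. IRE1 can also cut other mRNAs, a process known as RIDD, and this branch has been studied in cDC1s in particular. A floxed allele that has not met Cre is meant to leave its gene working, and the comparison asks how far the 2 floxed lines differ before any deletion.

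The immature libraries held 15083053 to 17000763 counts, and a detection floor of 3 counts stood for 0.176 to 0.199 CPM (counts per 1e6 counts). Levels below are CPM scaled by trimmed mean of M-values (TMM), and log2 fold changes are Xbp1flIre1fl over Xbp1fl with a standard error (SE). The cDC1 marker Xcr1, a chemokine receptor, was at 789 to 823 CPM in Xbp1fl and 667 to 827 CPM in Xbp1flIre1fl, and Clec9a, the receptor for dead cells, at 193 to 214 and 186 to 198 CPM. Over all 21 cDC1 markers none was called, at a background of 0.211% of all genes tested. Their median log2 fold change was -0.05, with 15 below and 6 above 0. They summed to 15300 to 16000 CPM in Xbp1fl and to 14500 to 15500 CPM in Xbp1flIre1fl. Some libraries stood apart from the others of their group. Xist was at 61.4 CPM in Xbp1fl library 4 and 67.7 CPM in Xbp1flIre1fl library 3, against at most 0.228 CPM in the other 6, and Y-linked transcripts were at or near 0 in these libraries, so that each genotype had 1 such library. Nnt, a gene deleted in part in the C57BL/6J subline, was at 66.9 and 52.6 CPM in Xbp1fl libraries 1 and 4 and 52.2 CPM in Xbp1flIre1fl library 4, and at 27.8 to 34.0 CPM in the other 5. The first principal component, with 21.8% of the variance, placed Xbp1flIre1fl library 4 (-14.0) among the Xbp1fl libraries (-18.4 to 3.22) and the other 3 Xbp1flIre1fl libraries above them (8.97 to 19.3). The 11 pancreatic acinar genes, a list chosen after their values were seen, summed to 72.7 CPM in that library and to 1.35 to 10.4 CPM in the other Xbp1flIre1fl libraries, against 21.1 to 52.5 CPM in Xbp1fl.

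**Figure D1:**
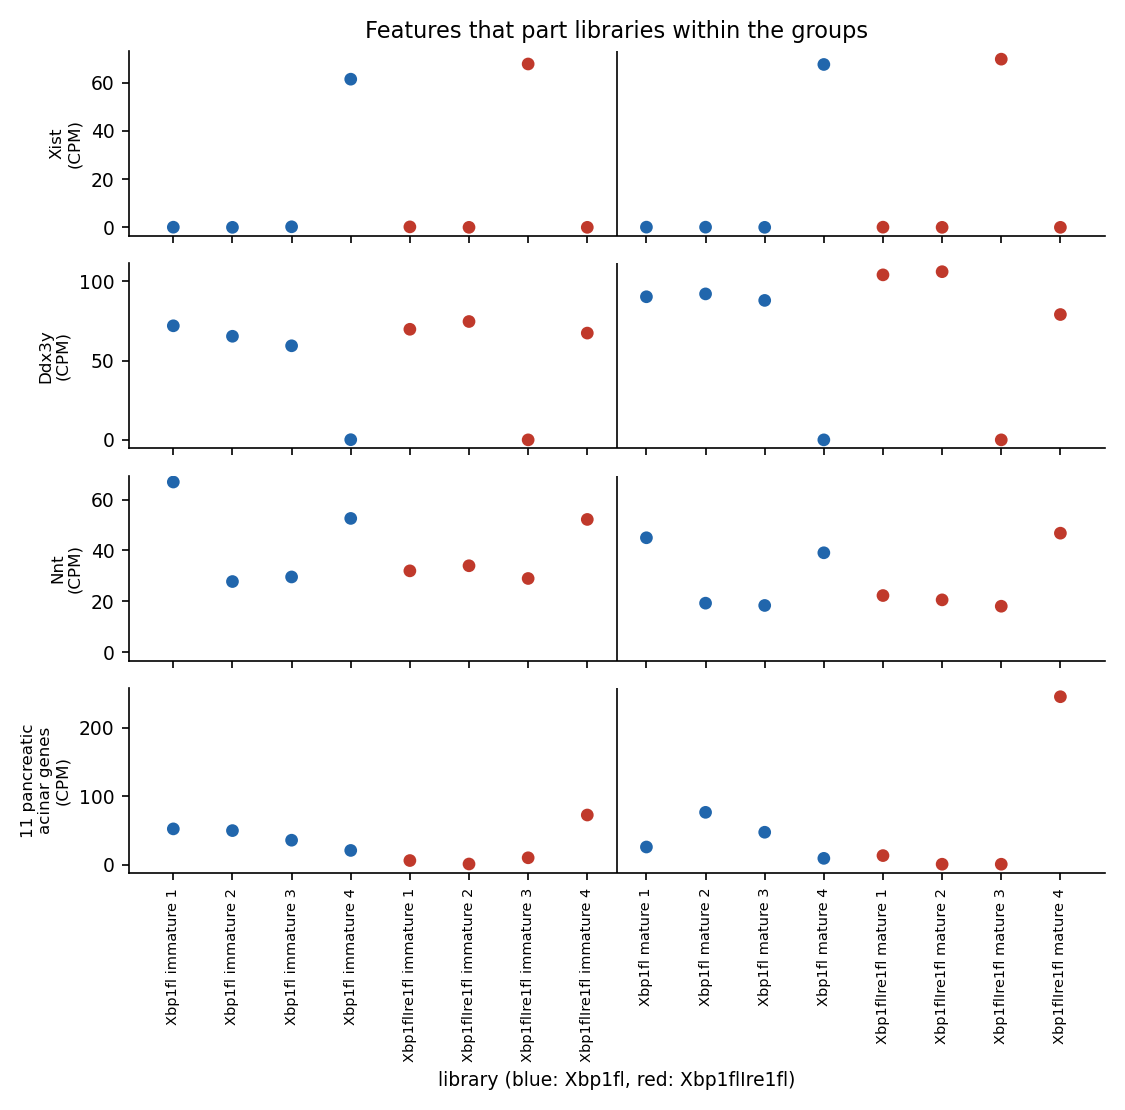
Levels (CPM, vertical axes) of Xist, Ddx3y, Nnt and the sum of 11 pancreatic acinar genes in each of the 16 libraries, 1 point per library, immature on the left and mature on the right of the line. Xist stood at 61.4 CPM in Xbp1fl immature library 4 and 67.7 CPM in Xbp1flIre1fl immature library 3, Ddx3y was at or near 0 in the same libraries, and the same replicate numbers stood out in mature cells.

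Few genes separated the genotypes. Of 11360 genes tested, 24 were called at an adjusted p under 0.05 by edgeR's quasi-likelihood test (0.211%), 11 higher and 13 lower in Xbp1flIre1fl. At an unadjusted p under 0.05 there were 834 genes (7.34%). The median log2 fold change of all genes was -0.001, and the 95th percentile of its absolute size was 0.46. The 24 called genes differed 1.25-fold to 5.71-fold, 12 of them over 2-fold (4 higher and 8 lower), and none overlapped between the genotypes, which held for 4.5% of all genes tested. Without Xbp1flIre1fl library 4 there were 48 calls, which held all 24. The 24 genes gained included Cela3b, Clps, Ctrb1 and Rnase1 of the pancreatic acinar list, whose sum was highest in that library. Without Xbp1flIre1fl library 3 there were 15, and without both libraries with Xist there were 11. Leaving out 1 library at a time ended the call of 10 genes at least once: Acbd4, Nefh, Arhgef18, Nsf, Arhgap27os3, Ifi35, Gm11696, Zfp951, C130046K22Rik and Acsf2, all of them but Arhgef18 without Xbp1flIre1fl library 3.

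**Figure D2:**
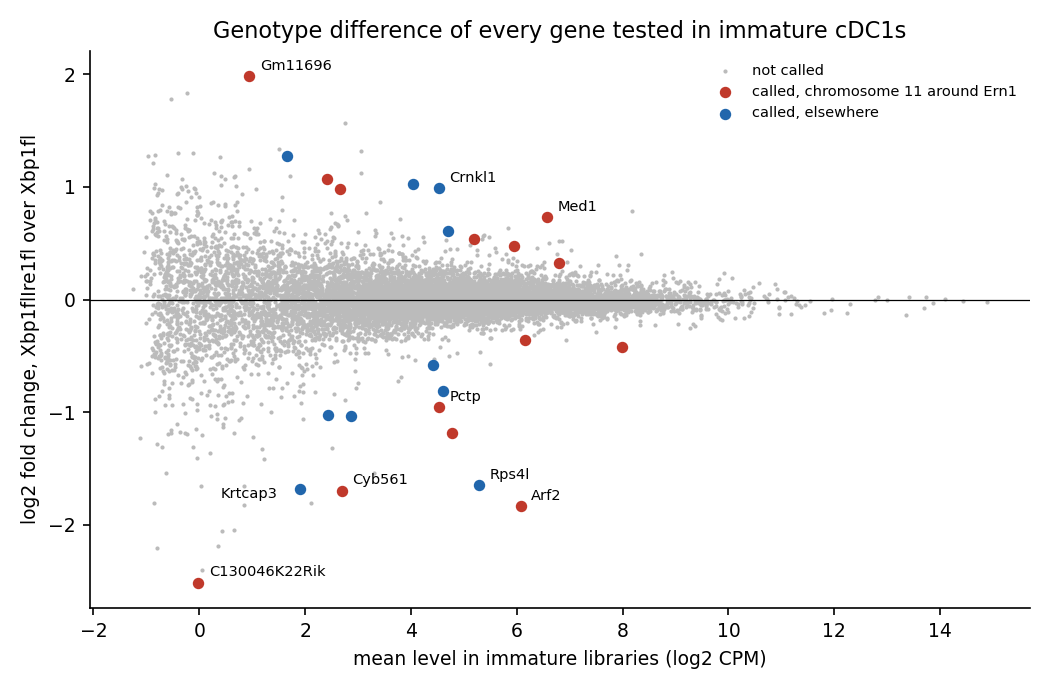
Log2 fold change of Xbp1flIre1fl over Xbp1fl (vertical axis) against the mean level in log2 CPM (horizontal axis) for the 11360 genes tested in immature cDC1s, 1 point per gene. The 24 called genes are coloured, 14 of them in the stretch of chromosome 11 around Ern1, and stand away from the grey points at their level.

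The floxed genes themselves were not called. Xbp1 was at 120, 132, 123 and 114 CPM in Xbp1fl libraries 1 to 4 and at 102, 112, 96.1 and 113 CPM in Xbp1flIre1fl libraries 1 to 4. Every Xbp1flIre1fl library lay below every Xbp1fl library, by a narrow margin, with a log2 fold change of -0.21 ± 0.07 (SE), an unadjusted p of 0.00687 and an adjusted p of 0.44 by edgeR's quasi-likelihood test. In mature cells the log2 fold change of Xbp1 was 0.07, with an unadjusted p of 0.474. Ern1 was at 30.9, 34.6, 32.4 and 30.2 CPM in Xbp1fl and at 25.9, 25.1, 33.0 and 30.6 CPM in Xbp1flIre1fl. The ranges overlapped, and the log2 fold change of -0.16 ± 0.09 (SE) had an adjusted p of 0.786. Counts per gene do not show the loxP sites, the floxed exons or the splicing of Xbp1, so these levels do not check the genotype labels.

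The called genes lay close together. In the mm10 annotation Ern1 spans chr11:106394650-106487852 on the minus strand and Xbp1 spans chr11:5520659-5525893 on the plus strand, at the other end of the same chromosome. In the distances below, the start and end of a gene are its lower and upper coordinates, whichever its strand. Chromosome 11 held 15 of the 24 called genes, or 1.55% of its 969 tested genes, against 9 of 10391 (0.0866%) on all other chromosomes. It held 7 of 15 calls without Xbp1flIre1fl library 3, 17 of 48 without library 4 and 6 of 11 without the libraries with Xist. Of these 15, 14 lay in the 19.4 Mb from Pctp (which starts at 89982665) to Gm11696 (which ends at 109363654), a stretch that includes Ern1. This stretch held 208 tested genes, so that 6.73% were called, 7 higher and 7 lower, and 23.1% had an unadjusted p under 0.05. The rest of chromosome 11 held 1 call among 761 tested genes (0.131%). Within 5 Mb of the Ern1 start 10 of 94 tested genes were called, and within 1 Mb 2 of 27 were. The direct neighbours of Ern1 were not called, with log2 fold changes of -0.12 for Icam2 and -0.03 for Tex2. Around Xbp1, 1 of 73 tested genes within 10 Mb was called, and 1 of 35 within 1 Mb, Nefh in both windows. The direct neighbours of Xbp1, Znrf3 (-0.19) and Ccdc117 (-0.05), were not called. The limits of the stretch were drawn after the calls were seen and its share has no test.

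**Figure D3:**
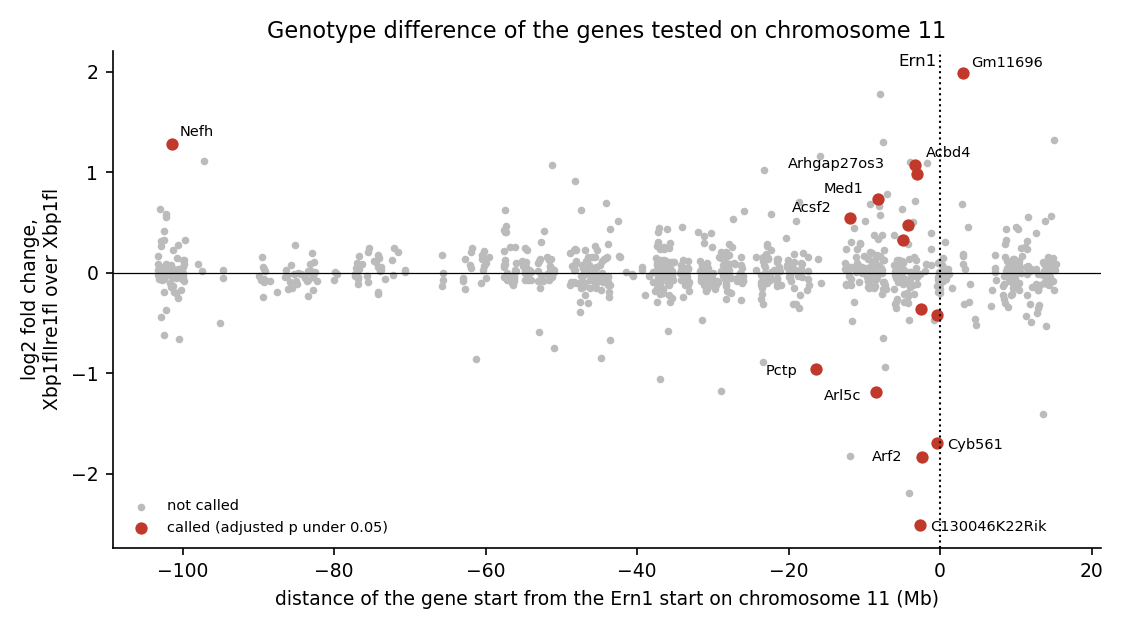
Log2 fold change of Xbp1flIre1fl over Xbp1fl (vertical axis) of the genes tested on chromosome 11 against the distance of their start (lower coordinate) from that of Ern1 in Mb (horizontal axis), 1 point per gene. Of the 15 red points, the called genes, 14 lie within 20 Mb of Ern1, above as well as below 0, and Nefh lies at the far end, 101 Mb from Ern1.

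Of the called genes in this stretch, 7 were lower in Xbp1flIre1fl, among them Arf2 and Arl5c, 2 GTPases of the ARF family, and Pctp, Cyb561 and Nsf. Arf2, which acts in vesicle budding at the Golgi (chr11:103966739-103985337, plus strand), was at 126, 86.1, 104 and 104 CPM in Xbp1fl and 28.8, 26.9, 33.8 and 28.3 CPM in Xbp1flIre1fl. All 4 Xbp1flIre1fl libraries lay far below the lowest Xbp1fl library, 3.56-fold on average (log2 fold change -1.83 ± 0.11 SE, adjusted p = 5.76e-06 by edgeR's quasi-likelihood test). Nsf, the ATPase that takes SNARE complexes apart after membrane fusion, lies 12.7 kb from Arf2 and fell by 0.36 on the log2 scale, with means of 79.9 ± 1.96 and 62.3 ± 4.75 CPM (SD over the 4 libraries of each genotype). Kansl1, the next tested gene on the other side of Arf2, differed by 0.02 and was not called. Arl5c, an ARF-like protein (chr11:97989578-97996181, minus strand), was at 36.5, 36.4, 46.7 and 32.9 CPM in Xbp1fl and 18.1, 15.2, 19.2 and 14.4 CPM in Xbp1flIre1fl. The groups lay apart, at 2.28-fold (adjusted p = 0.000255). Pctp, which carries phosphatidylcholine between membranes (chr11:89982665-90002894, minus strand), was at 31.9, 32.9, 29.4 and 28.5 CPM in Xbp1fl and 17.1, 14.2, 15.7 and 16.4 CPM in Xbp1flIre1fl. Its log2 fold change was -0.95 ± 0.09 (SE, adjusted p = 5.47e-05), again with no overlap.

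Cyb561, a membrane cytochrome that passes electrons across vesicle membranes, lies 0.441 Mb from the near end of Ern1 (chr11:105933702-105953336, minus strand). Its levels were 10.8, 10.8, 8.74 and 9.36 CPM in Xbp1fl and 3.73, 3.03, 2.53 and 2.96 CPM in Xbp1flIre1fl, a 3.24-fold lower mean (adjusted p = 5.47e-05). Dcaf7, a WD40 adaptor of CUL4 ubiquitin ligases 0.335 Mb from the near end of Ern1, had means of 292 ± 18.7 and 218 ± 15.8 CPM and fell by 0.42 on the log2 scale (adjusted p = 0.00643). Ace, the tested gene between Cyb561 and Dcaf7, was not called at a log2 fold change of -0.14. Tanc2, 4.4 kb from Cyb561 on its other side, was lower in every Xbp1flIre1fl library and was not called (-0.48, adjusted p = 0.367). The noncoding C130046K22Rik was at 1.13 to 2.46 CPM in Xbp1fl and fell to between 0.230 and 0.373 CPM in Xbp1flIre1fl, on 119 and 20 counts in all. Its locus overlaps Gosr2 on the other strand, and Gosr2 itself was level at 281 and 279 CPM.

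The other 7 called genes of the stretch were higher in Xbp1flIre1fl, with Med1 at the smallest adjusted p. Med1, the Mediator subunit through which nuclear receptors contact RNA polymerase II (chr11:98152154-98193293, minus strand), was at 79.2, 63.1, 72.6 and 70.7 CPM in Xbp1fl and 118, 122, 115 and 119 CPM in Xbp1flIre1fl. The groups lay far apart, with a log2 fold change of 0.73 ± 0.07 (SE, adjusted p = 5.47e-05 by edgeR's quasi-likelihood test). Arl5c lies 8.4 Mb and Med1 8.2 Mb from the near end of Ern1, close to each other, and moved in opposite directions, while Rpl19, a tested gene between them, differed by -0.04. Cdk12, a kinase of RNA polymerase II 9.77 kb from Med1 on its other side, was higher in every Xbp1flIre1fl library and was not called (0.33, adjusted p = 0.418). Lsm12, of the LSM family of RNA-associated proteins, had 48.0 to 54.7 CPM in Xbp1fl and 70.0 to 72.9 CPM in Xbp1flIre1fl and rose by 0.48 on the log2 scale (adjusted p = 0.00176). Hdac5, a histone deacetylase gene 9.14 kb from Lsm12, was lower in every Xbp1flIre1fl library and was not called (-0.30, adjusted p = 0.387). Acsf2, an acyl-CoA synthetase, rose from 29.7 ± 2.44 to 43.2 ± 4.06 CPM (SD, adjusted p = 0.011). Acbd4, an acyl-CoA binding protein, was at 2.74 to 4.14 CPM in Xbp1fl and 6.05 to 8.26 CPM in Xbp1flIre1fl (adjusted p = 0.0142). Ifi35, an interferon-induced protein, rose from 99.5 ± 4.27 to 124 ± 9.23 CPM, the smallest called fold (1.25, adjusted p = 0.0455). Gm11696 (0.771 ± 0.249 to 3.08 ± 0.853 CPM) and Arhgap27os3 (4.26 ± 1.34 to 8.42 ± 0.125 CPM) are antisense genes over Gna13 and Arhgap27. Whether the counting used strand is not given in the sources used here, so reads of these genes and their overlapping partners may not be separable. The partners were not called, with log2 fold changes of 0.16 for Gna13 and -0.11 for Arhgap27.

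**Figure D4:**
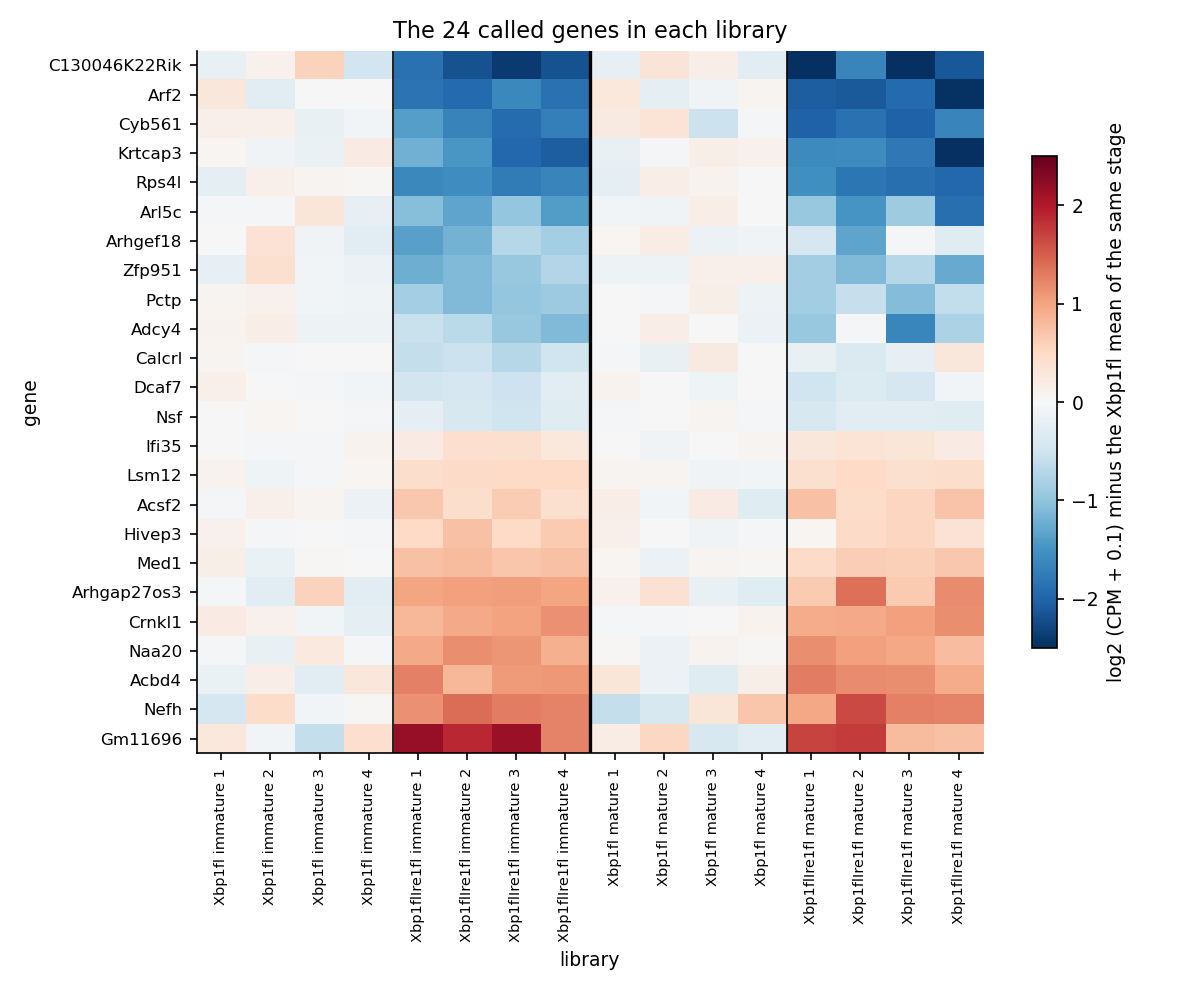
Levels of the 24 called genes (rows) in the 16 libraries (columns) as log2 (CPM + 0.1) minus the mean of the 4 Xbp1fl libraries of the same stage, with blue below and red above that mean. In the 4 immature Xbp1flIre1fl libraries each gene has 1 colour throughout, library 4 included.

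The other 10 called genes lay outside that stretch, 4 of them higher and 6 lower in Xbp1flIre1fl. Rps4l, annotated as a transcribed processed pseudogene of ribosomal protein S4 (chr6:148354656-148355598, plus strand), was at 50.5, 64.1, 62.0 and 59.9 CPM in Xbp1fl and 19.2, 20.1, 17.6 and 18.6 CPM in Xbp1flIre1fl. All Xbp1flIre1fl libraries were close together, 3.13-fold below Xbp1fl, with the smallest adjusted p of all genes (1.1e-07). It is a close copy of Rps4x, and how reads shared between them were counted is not given in the sources used here, so its level is uncertain. Rps4x was not called, at 328 and 307 CPM.

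Crnkl1, a spliceosome component (chr2:145917479-145935014, minus strand), and Naa20, the catalytic subunit of the NatB N-terminal acetyltransferase (chr2:145902099-145916425, plus strand), end 1.05 kb apart and rose together. Crnkl1 was at 17.6, 16.5, 14.6 and 12.9 CPM in Xbp1fl and 27.4, 29.7, 31.0 and 34.1 CPM in Xbp1flIre1fl. Naa20 was at 10.6, 9.43, 12.8 and 10.6 CPM in Xbp1fl and 20.9, 24.1, 23.2 and 20.03 CPM in Xbp1flIre1fl. Both rose without overlap, 1.98-fold and 2.04-fold (adjusted p = 0.000255 each). The next tested genes outward, Rin2 (0.39) and Ralgapa2 (0.19), were not called.

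Krtcap3 on chromosome 5 was at 5.90, 5.36, 5.03 and 6.57 CPM in Xbp1fl and 2.42, 2.02, 1.38 and 1.28 CPM in Xbp1flIre1fl (3.22-fold lower, adjusted p = 0.0023). Its neighbours Nrbp1 and Ift172, 0.125 and 0.075 kb away, differed by 0.04 and -0.01. Zfp951, a zinc finger gene on the same chromosome, fell 2.04-fold. On chromosome 2, far from Crnkl1, Calcrl, the receptor for the peptides CGRP and adrenomedullin, was at 24.8 to 26.7 CPM in Xbp1fl and 15.6 to 18.2 CPM in Xbp1flIre1fl (log2 fold change -0.58, adjusted p = 0.00421). Its neighbour Tfpi, an inhibitor of coagulation 7.44 kb away, was not called, at a log2 fold change of -1.54 on levels under 1.2 CPM. Adcy4, an adenylate cyclase on chromosome 14, fell from 30.9 ± 3.19 to 17.6 ± 3.02 CPM, and Arhgef18 on chromosome 8 from 9.82 ± 1.90 to 4.79 ± 0.99 CPM. Hivep3, a zinc finger transcription factor on chromosome 4, rose from 20.6 ± 1.06 to 31.3 ± 2.58 CPM (adjusted p = 0.00327). Nefh, the neurofilament heavy chain, rose from 1.84 ± 0.498 to 4.45 ± 0.325 CPM. It is the called gene on the Xbp1 side of chromosome 11, 0.573 Mb from the near end of Xbp1. Just outside the threshold were Rsad1 on chromosome 11 (log2 fold change -1.82, adjusted p = 0.0608), 7.85 kb from Acsf2, and Xlr on the X chromosome (-0.69, adjusted p = 0.0664).

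The mature libraries gave the same contrast in cells that the immature test did not use. There 17 of 11978 genes were called (0.142%), and 14 of them were among the 24. All 24 kept their direction in mature cells, 19 without overlap (2.5% of the genes tested had none), and 23 had an unadjusted p under 0.05, against 6.29% of all genes tested there. Arf2 was at 160 to 230 CPM in mature Xbp1fl and 34.2 to 49.5 CPM in mature Xbp1flIre1fl, higher than in immature cells in both genotypes, with a log2 fold change of -2.15 ± 0.13 (SE). Arl5c was at 348 to 417 and 101 to 201 CPM, and its log2 fold change of -1.24 ± 0.18 compared with -1.19 ± 0.12 in immature cells. Rps4l (-1.80), Med1 (0.60), Pctp (-0.78), Cyb561 (-1.96), Crnkl1 (1.03), Naa20 (0.99), Krtcap3 (-1.88) and Zfp951 (-0.99) were also called in mature cells. Calcrl was not, at -0.10 ± 0.13, with 10.2 to 13.6 CPM in Xbp1fl and 9.06 to 14.2 CPM in Xbp1flIre1fl. The difference between the stages was tested as an interaction over all 16 libraries, and edgeR's quasi-likelihood test called 0 of 11978 genes (0.0%), with 329 (2.75%) at an unadjusted p under 0.05 and 0 calls by DESeq2. Of the 24, Calcrl alone had an unadjusted interaction p under 0.05 (0.0125, not called after adjustment). Within each genotype, immature and mature libraries of the same number varied together (r of 0.29 to 0.604 over genes), so that the mature libraries are no independent sample of mice or preparations.

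**Figure D5:**
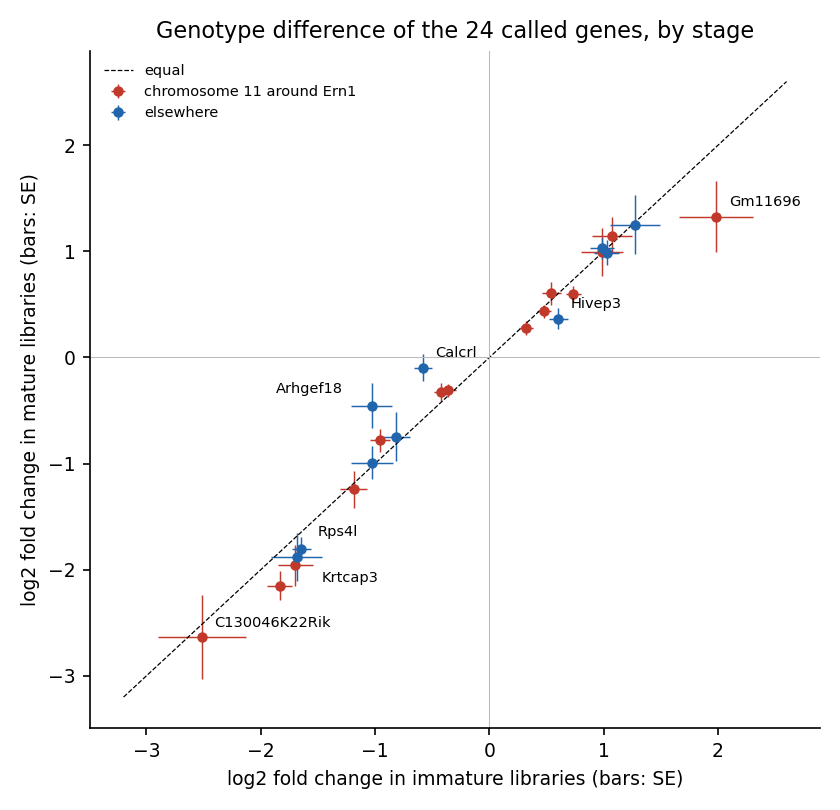
Log2 fold change of Xbp1flIre1fl over Xbp1fl in mature (vertical axis) against immature libraries (horizontal axis) for the 24 called genes, with SE bars and a dashed line where both are equal. All points lie in the 2 quadrants of equal sign, and Calcrl lies nearest to 0 on the mature axis, at -0.10.

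RefSeq (build GRCm38.p6, the same assembly as mm10) gave a promoter for 17 of the 24 called genes. The 250 bases before the start are shown for the 5 whose window held no annotated exon, 4 genes that fell and Naa20, which rose, so that the sequence at which their transcription starts can be read beside their levels. Capitals mark CCAAT (the core bound by NF-Y) and TTCCGG (a core bound by ETS factors) on either strand, motifs chosen after the sequences were seen. Windows are chr11:103966475-103966724 (plus) for Arf2, chr11:90002895-90003144 (minus) for Pctp, chr11:103954057-103954306 (minus) for Nsf, chr11:106036622-106036871 (plus) for Dcaf7 and chr2:145902991-145903240 (plus) for Naa20. The RefSeq start of Naa20 lies inside the gene as GENCODE places it (from 145902099), so that its window is not upstream of the GENCODE start, and it holds no annotated exon. The sequences are reference sequence and do not show the alleles of these mice.
Naa20: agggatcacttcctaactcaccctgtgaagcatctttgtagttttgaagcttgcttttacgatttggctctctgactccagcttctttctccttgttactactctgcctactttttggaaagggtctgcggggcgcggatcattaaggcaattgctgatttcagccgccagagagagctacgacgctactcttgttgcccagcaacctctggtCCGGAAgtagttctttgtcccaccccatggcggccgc
Pctp: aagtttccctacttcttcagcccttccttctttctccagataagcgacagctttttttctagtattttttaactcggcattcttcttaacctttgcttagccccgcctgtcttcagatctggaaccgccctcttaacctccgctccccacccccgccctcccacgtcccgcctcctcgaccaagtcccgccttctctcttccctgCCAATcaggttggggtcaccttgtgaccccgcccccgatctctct
Nsf: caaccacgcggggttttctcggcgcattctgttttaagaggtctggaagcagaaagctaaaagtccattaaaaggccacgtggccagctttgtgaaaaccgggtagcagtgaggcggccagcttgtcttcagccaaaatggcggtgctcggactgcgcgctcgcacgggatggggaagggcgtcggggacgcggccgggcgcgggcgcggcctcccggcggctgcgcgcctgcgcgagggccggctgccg
Arf2: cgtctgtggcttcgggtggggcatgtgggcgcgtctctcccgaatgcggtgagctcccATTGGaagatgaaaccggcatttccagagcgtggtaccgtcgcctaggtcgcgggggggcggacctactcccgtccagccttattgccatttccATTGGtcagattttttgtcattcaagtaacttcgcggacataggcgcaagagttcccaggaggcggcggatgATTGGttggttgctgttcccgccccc
Dcaf7: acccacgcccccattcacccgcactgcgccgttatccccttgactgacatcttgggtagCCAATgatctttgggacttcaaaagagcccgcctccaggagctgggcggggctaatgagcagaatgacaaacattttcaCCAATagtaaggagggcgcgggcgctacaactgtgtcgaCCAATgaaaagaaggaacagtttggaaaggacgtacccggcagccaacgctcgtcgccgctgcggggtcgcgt
Arf2 and Dcaf7 each held 3 CCAAT matches and Pctp 1. CCAAT was in 5 of the 17 promoters of called genes, also in those of Zfp951, which fell, and Med1, which rose. It was in 34.5% of 27025 promoters. Naa20 held 1 TTCCGG match, a motif in 4 of the 17 promoters of called genes and in 12.2% of all promoters. The others were those of Crnkl1, which rose, and of Zfp951 and C130046K22Rik, which fell. The XBP1-bound UPRE (TGACGTGG) was in 0 of the 17 windows and in 0.503% of all promoters.

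Genes of the IRE1 pathway and of cDC1 function were then read from 38 lists with 511 tested genes. None of the 38 lists held a called gene, at a background of 0.211%. The 12 sensors of the unfolded protein response and their partners had a median log2 fold change of 0.008, with 6 above and 6 below 0. Of them 3 had an unadjusted p under 0.05, against 7.34% of all genes tested. Also 3 did not overlap between genotypes, against 4.5% of all genes tested, and these went in both directions. These 3 included Xbp1, above. Map3k5, the stress kinase ASK1 that acts downstream of IRE1, was at 25.7 and 30.7 CPM, higher in every Xbp1flIre1fl library (log2 fold change 0.26, adjusted p = 0.367). Rtcb, the ligase that joins the spliced Xbp1 mRNA, was at 178 and 164 CPM, lower in every Xbp1flIre1fl library (-0.12, adjusted p = 0.604). Eif2ak3, which encodes PERK, was at 37.9 ± 1.96 and 37.8 ± 4.22 CPM and Atf6 at 148 ± 8.53 and 142 ± 5.02 CPM (SD, n = 4 each). The 32 XBP1 targets and ER folding genes had a median log2 fold change of 0.03, against -0.001 for all genes, with 20 above and 12 below 0. Of the 32, 5 had an unadjusted p under 0.05, all above 0, against 7.34% of all genes tested. Among them 3 genes of the list did not overlap, all higher in Xbp1flIre1fl, against 4.5% of all genes tested. Creld2, an ER-resident protein, was at 117, 122, 134 and 131 CPM in Xbp1fl and 140, 165, 152 and 137 CPM in Xbp1flIre1fl (log2 fold change 0.24, adjusted p = 0.321), without overlap but by a small step. Hsp90b1, the ER form of HSP90, was at 1008 ± 68.9 and 1148 ± 50.5 CPM (adjusted p = 0.367). All 7 tested RIDD substrates had a log2 fold change below 0, between -0.75 and -0.05 with a median of -0.10, and none had an unadjusted p under 0.05. The -0.75 was that of Sparc, at low levels of 1.09 ± 0.76 and 0.65 ± 0.11 CPM (SD) that overlapped between genotypes. The 18 ATF4 and CHOP targets had a median of 0.10 and none with an unadjusted p under 0.05.

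Maturation and metabolic lists were also without a call. The 32 tested genes of the shared dendritic cell maturation programme had a median of 0.03, and Cd40, a costimulatory receptor, was at 50.6 and 59.0 CPM (adjusted p = 0.50). LXR targets, named in the title of the series, had a median of -0.07, with 15 of 19 below 0. Arl4c, an ARF-like protein, had the smallest p in the list and lay above 0, at 10.9 and 13.8 CPM (log2 fold change 0.34, adjusted p = 0.587), and Mylip, a degrader of the LDL receptor, was at 22.2 and 19.2 CPM (-0.20, adjusted p = 0.647). The 24 genes of cholesterol synthesis and uptake had a median of 0.01, and Dhcr7, its last reductase, was at 16.8 and 10.2 CPM (-0.72, adjusted p = 0.485). The 29 cell cycle genes had a median of 0.09 and 26 above 0, with 4 at an unadjusted p under 0.05, against 7.34% of all genes tested. Interferon-stimulated genes had a median of 0.30, with 23 of 29 above 0. Of the 29, 9 had an unadjusted p under 0.05, against 7.34% of all genes tested, and 2 did not overlap, against 4.5%. The 30 genes of the list summed to 896 to 974 CPM in Xbp1fl and 873 to 1170 CPM in Xbp1flIre1fl, so that the summed levels overlapped. Gbp2, an interferon-induced GTPase, was at 5.87 to 9.42 CPM in Xbp1fl and 9.995 to 18.97 CPM in Xbp1flIre1fl. Its groups did not overlap, Xbp1flIre1fl library 4 was highest, and the log2 fold change of 0.87 had an adjusted p of 0.188 by edgeR's quasi-likelihood test.

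Markers of other cells give the background of the sort. Of 13 such lists none held a called gene. The 12 cDC2 markers summed to 269 to 308 CPM in Xbp1fl and 300 to 334 CPM in Xbp1flIre1fl. Their 11 tested members had a median of 0.29, with 9 above and 2 below 0. Of the 11, 5 had an unadjusted p under 0.05 by edgeR's quasi-likelihood test, all above 0, against 7.34% of all genes tested. Of the same 11, 4 did not overlap between genotypes, all higher in Xbp1flIre1fl, against 4.5% of all genes tested. Cd7 was at 11.6 ± 2.20 and 17.1 ± 1.28 CPM and Dtx1 at 10.5 ± 2.68 and 17.2 ± 2.02 CPM (SD, n = 4 each, adjusted p of 0.159 and 0.186). Clec12a, the most abundant tested member, went the other way, at 156 and 146 CPM (log2 fold change -0.10). Erythroid genes summed to 11.9 to 50.4 CPM in Xbp1fl and to at most 25.3 CPM in Xbp1flIre1fl, with Hba-a1, Hba-a2 and Hbb-bt listed at 0. Their 5 tested members had a median of -1.54, led by Alas2, the first enzyme of erythroid heme synthesis, at 14.8 ± 7.61 and 5.07 ± 2.29 CPM (adjusted p = 0.578). Macrophage genes summed to 187 to 765 CPM in Xbp1fl and 276 to 372 CPM in Xbp1flIre1fl. In bulk RNA, fewer cells of a type and less RNA per cell cannot be told apart. The part of these cells in the 24 calls was not tested, and none of the 24 is in a list.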

How the data were processed

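RNA from splenic cDC1s was sequenced in 16 libraries, of which the 8 immature ones form the comparison, grouped by the stage and genotype in their labels. The build mm10 and the tools TopHat2 2.1.0, Trimmomatic 0.35, SAMtools 0.1.19, FastQC 0.11.4 and limma 3.42.2 are listed in the submitters' processing notes, without role or order. The read counter, annotation and strandedness are not given in the sources used here. The authors deposited raw counts per gene symbol for 24421 genes, which were tested. They also deposited log2 values for 11843 genes, which lay within a residual SD of 0.0298 of log2 CPM plus a constant per library, by comparison of both tables, and served as an alternative.

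Counts were fitted in R 4.3.3 with edgeR 4.0.16 (filterByExpr, TMM, robust quasi-likelihood F-test, 6 residual degrees of freedom), with Benjamini-Hochberg adjustment over 11360 genes and calls at an adjusted p under 0.05. Mature and interaction contrasts used all 16 libraries (12 residual degrees of freedom). Printed levels are CPM scaled by TMM over 16 libraries. Each SE was derived as the size of the log2 fold change over the root of its F statistic. DESeq2 1.42.0 and limma 3.58.1 gave alternatives. Scripts were tested on simulated data. Floors of 3 counts cover counting error only. All 12 pairs of immature libraries of the same genotype differed by more than sampling noise (5.41 to 15.4 chi-square units per degree of freedom), so none was taken for a duplicate. Positions came from GENCODE vM21, with 99.6% of symbols matched. The comparison, lists and rule for naming genes were chosen with earlier results of these data known. Named by rule were the floxed genes, the called genes of smallest adjusted p, largest change or nearness to a floxed gene, the nearest neighbours of the floxed genes, leading members of the lists and sex-linked genes. Neighbours of called genes, Nnt, Rsad1, Xlr and the pancreatic list were chosen after their values were seen. Xcr1, Clec9a, Eif2ak3, Atf6, Rps4x, Nr4a3, Tmem88, Wipf2 and 3830403N18Rik were also named outside the rule.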

Additional observations from a re-analysis of the deposited data

Results flagged for a closer look

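Of 58 groups of 4 immature libraries tested for a sample far from the other 3, 3 had one, where chance gives about 1 in 20. Xist, the RNA of X inactivation, was at 61.4 CPM in Xbp1fl library 4, against 0 to 0.228 CPM in the other 3. Xist was at 67.7 CPM in Xbp1flIre1fl library 3, against 0 to 0.186 CPM in the other 3. Ddx3y, a Y-linked helicase gene, was at 0.0 CPM in Xbp1flIre1fl library 3, against 67.3 to 74.6 CPM in the other 3.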

How the results depend on the processing

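No alternative changed the sign of any of the 24 genes, and 8 of them (Rps4l, Arf2, Med1, Pctp, Cyb561, Arl5c, Crnkl1 and Naa20) were called in all 21 alternatives. Against 24 calls (11 higher, 13 lower), DESeq2 gave 58 (26 and 32) and a test against a 1.2-fold change 12 (4 and 8). Leaving out both libraries with Xist, an alternative chosen after seeing the data, gave 11 (5 and 6), with 6 libraries in the fit. All 16 libraries in the fit gave 7 higher genes, and no filter on low counts gave 20 lower ones, with more genes tested. Leaving out 1 library at a time gave 15 to 48 calls, 5 to 26 higher and 9 to 22 lower. The lowest total was without Xbp1flIre1fl library 3 and the highest without Xbp1flIre1fl library 4. In mature cells, 17 calls became 36 with DESeq2, and 15 to 30 when 1 library was left out, 30 without Xbp1flIre1fl mature library 2. The causes of these shifts were not tested.

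Replicate numbers did not pair immature libraries across genotypes (r of -0.139 to 0.109 at equal numbers, 0 of 4 best at their own). With the replicate number as a block there were 17 calls, 6 of them higher, and 16 were among the 24. Between stages the numbers paired libraries within a genotype (4 of 4 in each), and the interaction blocked in this way also gave 0 calls. Depth limits genes near the floor, such as C130046K22Rik with 20 counts in all Xbp1flIre1fl libraries.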

Other observations

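In mature cells 3 genes outside the 24 were called. Tmem88, a membrane protein of Wnt signalling on chromosome 11, was at 7.71 to 11.6 CPM in mature Xbp1fl and 2.90 to 5.11 CPM in mature Xbp1flIre1fl (log2 fold change -1.27, adjusted p = 0.0161 by edgeR's quasi-likelihood test), and in immature cells its log2 fold change was -1.06 without overlap (adjusted p = 0.127). The X-linked 3830403N18Rik had log2 fold changes of -3.54 in mature and -2.05 in immature cells, on levels under 4 CPM. Wipf2, an actin regulator on chromosome 11, was at 13.9 ± 0.611 and 7.80 ± 0.80 CPM in mature cells (SD, n = 4 each) and at 5.85 ± 0.866 and 5.47 ± 0.748 CPM in immature cells, with an unadjusted interaction p of 0.0011 that did not pass adjustment.

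Xbp1flIre1fl immature library 4 also stood apart in Nr4a3, a nuclear receptor of the immediate early response, at 157 CPM against 414 to 461 CPM in the other 3 and 255 to 324 CPM in Xbp1fl. Per1, of the circadian clock, was at 33.0 CPM there, against 66.4 to 84.9 and 41.6 to 56.2 CPM. Without this library both were called, at log2 fold changes of 0.66 and 0.62. The pancreatic acinar genes were highest in mature library 4 of the same genotype too, at 245 CPM, against 1.00 to 13.6 CPM in the other 3 and 9.58 to 76.6 CPM in Xbp1fl.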
